A study of Mus musculus with 2 samples.

Results

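The genes described here are 10 members of the transforming growth factor beta (TGF-beta) pathway, the ligand Tgfb1, the receptors Tgfbr1, Tgfbr2 and Tgfbr3, the SMAD genes Smad2, Smad3, Smad4 and Smad7, and the corepressors Ski and Skil. They were taken as every array probe whose transcript accession belongs to a listed gene, which gave 17 probes for 10 of the 17176 genes named on the array. Their level was compared between splenic helper T cells, which carry CD4, and splenic cytotoxic T cells, which carry CD8. Both samples were sorted from spleen cells of wild-type C57B6 mice, and the labels give no treatment other than the sort. The sources used here do not give the number, age or sex of the mice, nor the markers used to sort them. The samples are called helper and cytotoxic below.

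TGF-beta is secreted as an inactive complex and has to be released before it can act. The free ligand binds the type II receptor, which recruits and phosphorylates the type I receptor, and this kinase phosphorylates SMAD2 and SMAD3, which enter the nucleus together with SMAD4. SMAD7 blocks the type I receptor, and SKI and SKIL hold SMAD complexes in a repressed state. In T cells the pathway is known for restraining activation and effector functions, for maintaining naive cells, and for inducing regulatory T cells and the integrin CD103.

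RNA of each sample was measured on 1 single-colour (Cy3) Agilent array, both on the same slide. Without replicates no test could be made, and the precision is limited by the number of arrays. Levels are the scanner software's processed signal, a linear brightness after background subtraction. For differences, log2 signals were set relative to each array's 75th percentile (508 for helper and 449.9 for cytotoxic cells), and the helper value was subtracted from the cytotoxic value. A negative log2 difference therefore means a higher level in helper cells. Only technical spread could be measured. Probes of the same gene differed in this log2 difference with an SD of 0.23 (3972 genes), and the error given with a signal is the scanner software's own estimate. Of the array's spots, 63.1% were well above background in helper cells and 58.6% in cytotoxic cells. The labels were checked with Cd8a, which was 105.6-fold higher in cytotoxic cells, and Cd4, which was 4.12-fold higher in helper cells, and all 6 matched genes of a general T cell list were above background in both samples and within 2-fold. In bulk RNA, fewer cells of a type and less RNA per cell cannot be told apart. Signals depend on the probe, so no gene is ranked against another by its signal, and sums over marker genes are given only to set the samples side by side.

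The type I receptor and the co-receptor differed most between the arrays, both in favour of helper cells, while the ligand, the type II receptor and the SMAD genes lay close together. All 10 genes were well above background in both samples by at least 1 probe, beside 11957 of the 17176 genes named on the array. Tgfbr1 was the only member at least 2-fold apart, so that 1 of 10 members was at least 2-fold higher in helper cells and none in cytotoxic cells. Over all 11957 genes above background in both samples, 3.83% were at least 2-fold higher in helper cells and 1.94% in cytotoxic cells (458 and 232 genes, or 366 and 320 when arrays were scaled to their medians). At 1.5-fold, Tgfbr1 and Tgfbr3 were higher in helper cells, beside 8.54% of all genes, and no member was higher in cytotoxic cells, beside 5.5%. A count of 1 or 2 among 10 members is too small to set apart from these shares. The median difference of the members was -0.06, beside 0.02 over all genes. Of the members, 7 differed by less than the SD between probes of a gene, as did 56.7% of all genes.

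**Figure D1:**
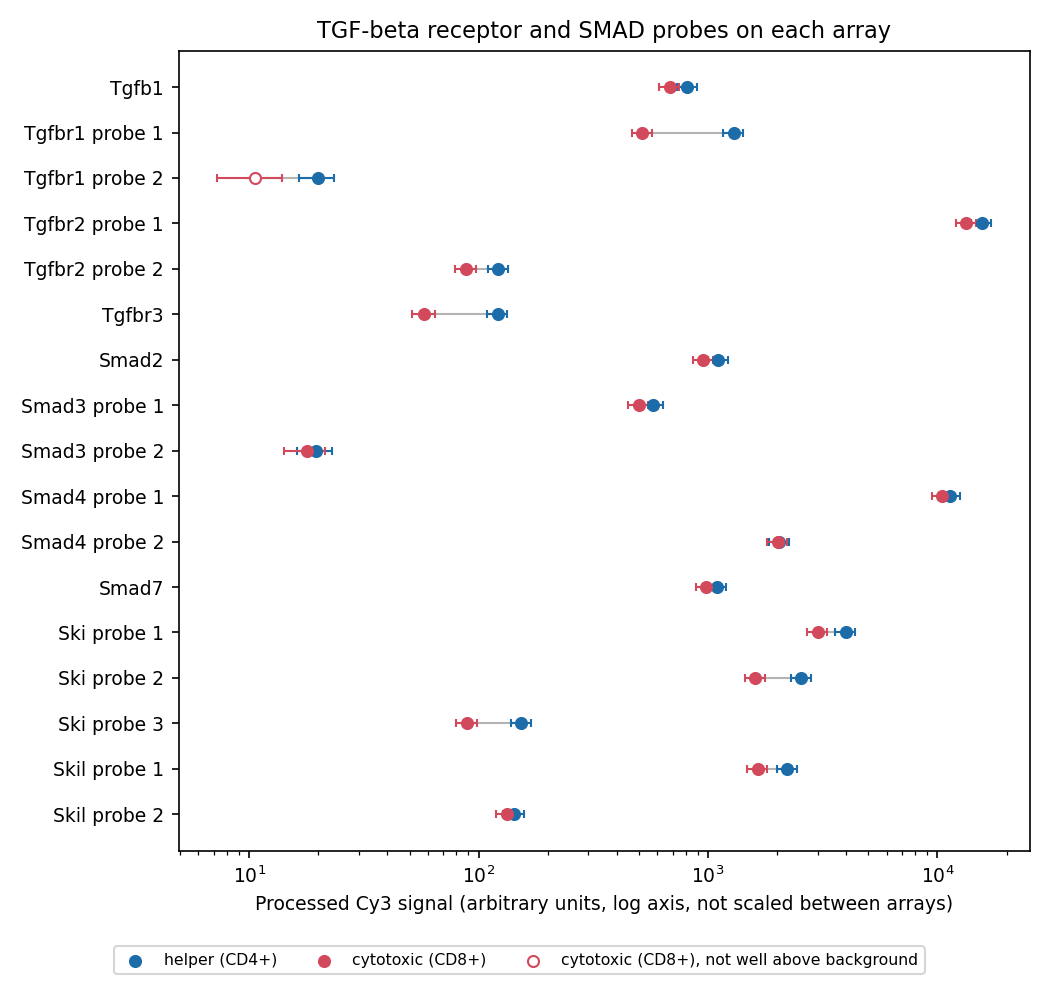
Processed Cy3 signal of each of the 17 probes in helper cells (blue) and cytotoxic cells (red), on a log axis and before scaling, with bars for the scanner software's error. The points of a probe lie farthest apart for the brighter Tgfbr1 probe (1297 and 517) and Tgfbr3 (121 and 57.9), and 1 Tgfbr1 probe (open point) was not well above background in cytotoxic cells.

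Tgfbr1 encodes the type I receptor (ALK5), the kinase that passes the signal to the SMADs. Its brighter probe gave a signal of 1297 ± 129.7 (software error) in helper cells and 517 ± 51.8 in cytotoxic cells. The helper signal was thus the higher, by 2.22-fold after scaling, with a log2 difference of -1.15 and a software error of 0.20. Of all genes, 3.03% had a lower difference than Tgfbr1, and among the 2989 genes of the same level quartile 1.57% were at least 2-fold higher in helper cells. The second Tgfbr1 probe was dim, with a signal of 20.0 ± 3.51 in helper cells and 10.6 ± 3.30 in cytotoxic cells, where it was not well above background. Against the lowest level measured above background in cytotoxic cells, this probe was at least 1.20-fold higher in helper cells. Its direction was that of the brighter probe, but this bound lies under 2-fold, so that the 2-fold difference of Tgfbr1 rests on 1 probe. Over 11 alternatives the log2 difference of that probe lay between -1.25, with the series values, and -1.01, with median scaling.

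Tgfbr2 encodes the type II receptor, which binds the ligand and forms the signalling complex with TGFBR1. The probe of the transcript NM_009371 had a signal of 15569.7 ± 1557 in helper cells and 13383 ± 1338 in cytotoxic cells. These levels nearly coincided after scaling, with a log2 difference of -0.04 and a software error of 0.20. A probe of the transcript NM_029575 gave 122 ± 12.5 in helper cells and 87.8 ± 9.25 in cytotoxic cells, a log2 difference of -0.30. By their brighter probes, the chains of the same receptor complex differed between the arrays by unlike amounts, with Tgfbr1 beyond 2-fold and Tgfbr2 within 1.03-fold. The dimmer probes do not show this contrast. They were higher in helper cells by at least 1.20-fold for Tgfbr1 and by 1.23-fold for Tgfbr2.

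The sequence before the start of the type I and of the type II receptor gene is shown because these partner chains differed by unlike amounts by their brighter probes. The windows are the 250 bases before the start in RefSeq (build GRCm38.p6), with GC boxes, the motif GGGCGG of the transcription factor Sp1 searched on both strands, in capitals. Tgfbr1 is shown from the more upstream of the 2 starts listed, at chr4:47352972-47353221 on the plus strand, and Tgfbr2 at chr9:116175364-116175613 on the minus strand.
Tgfbr1: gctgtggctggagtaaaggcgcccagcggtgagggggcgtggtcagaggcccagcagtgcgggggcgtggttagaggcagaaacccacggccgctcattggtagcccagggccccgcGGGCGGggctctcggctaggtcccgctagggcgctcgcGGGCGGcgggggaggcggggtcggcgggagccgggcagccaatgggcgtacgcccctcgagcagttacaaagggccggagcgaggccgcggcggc
Tgfbr2: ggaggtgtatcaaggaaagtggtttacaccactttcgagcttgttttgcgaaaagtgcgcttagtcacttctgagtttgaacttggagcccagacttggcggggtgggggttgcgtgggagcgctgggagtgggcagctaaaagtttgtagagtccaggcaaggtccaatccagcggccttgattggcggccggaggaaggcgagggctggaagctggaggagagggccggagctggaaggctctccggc

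The Tgfbr1 window held 2 GC boxes and was 74.8% G and C, while the Tgfbr2 window held none and was 58.4% G and C. Over 32851 such windows the median was 52.4% G and C, and 32.7% held a GC box on either strand. The SMAD motif CAGAC, searched on both strands, occurred 1 time in the Tgfbr2 window and not in that of Tgfbr1, beside 42.2% of all windows. Neither window held the palindromic SMAD element GTCTAGAC, found in 0.167% of all windows. The sequence TATAAA was also not found in them on either strand, beside 12.4% of all windows. None of these motifs overlapped another in the windows shown. The array measured no binding, and a match of letters is a description of the sequence alone. Windows were searched for 5 of the 10 members, with 1 chromosome left out of the search for members. No window was searched for Tgfbr3, Smad2, Smad4, Smad7 and Skil, so the members as a group are not described. The windows of Tgfb1, Ski and Smad3 also held GC boxes, 5, 5 and 2 of them.

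Tgfbr3 encodes betaglycan, a co-receptor that presents TGF-beta to the type II receptor. Its single probe gave a signal of 121 ± 12.4 in helper cells and 57.9 ± 6.63 in cytotoxic cells. It was 1.85-fold higher in helper cells, with a log2 difference of -0.89 and a software error of 0.22. This is a dim probe, and among the dimmest quartile of genes (2989 genes) 15.8% were at least 1.5-fold higher in helper cells and 8.80% had a difference as low as that of Tgfbr3. The difference shrank to 1.40-fold with normexp background correction and to 1.45-fold with the series values, and with these settings it no longer passed 1.5-fold.

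**Figure D2:**
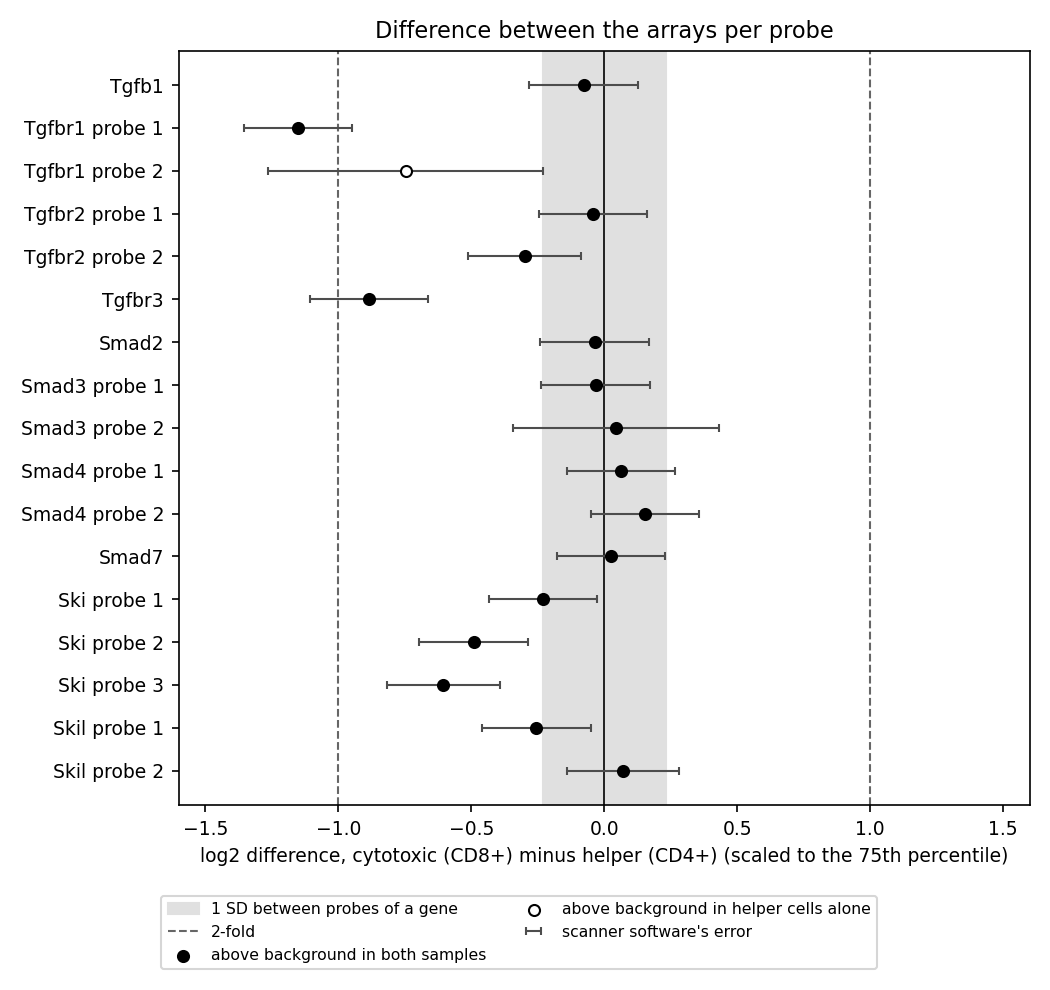
Log2 difference between the arrays (cytotoxic minus helper, scaled) of each probe, with bars for the scanner software's error, dashed lines at 2-fold and a grey band of 1 SD between probes of a gene. The brighter Tgfbr1 probe at -1.15 lies beyond 2-fold, Tgfbr3 lies at -0.89, the 3 Ski probes lie between -0.23 and -0.60, and the SMAD probes lie around 0.

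Tgfb1 encodes the main TGF-beta ligand of lymphocytes. Its probe was printed in 10 spots, of which all 10 were kept in helper cells and 7 in cytotoxic cells, where 3 were marked as outliers by the software. The processed signal was 811 ± 23.7 (SD over spots) in helper cells, from 771 to 841, and 680.4 ± 19.96 in cytotoxic cells, from 654 to 706. Before scaling the spots of the arrays did not overlap, with every helper spot the brighter. After scaling they overlapped, and the log2 difference was -0.08, ranging from -0.13 to 0.05 over the 7 spots kept on both arrays. Spots of a probe share the RNA of the array and measure only technical error, and the difference turned to 0.07 when arrays were scaled to their medians.

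**Figure D3:**
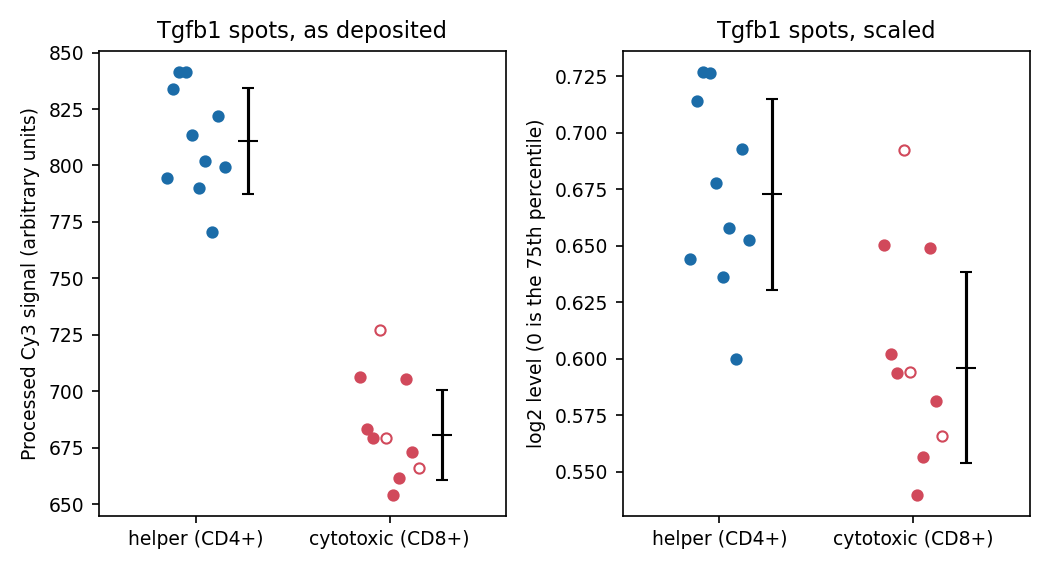
Values of the 10 Tgfb1 spots on each array, as the processed Cy3 signal (left) and as the log2 level relative to the array's 75th percentile (right), with mean and SD over the kept spots in black and outlier spots as open points. Axes do not start at 0. The spots separate by array on the left, at 771 to 841 against 654 to 706 for kept spots, and overlap on the right.

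Smad2 and Smad3 encode the SMADs that the type I receptor phosphorylates. The Smad2 probe gave 1107 ± 111 in helper cells and 955 ± 95.6 in cytotoxic cells, a log2 difference of -0.04. The brighter Smad3 probe gave 577 ± 57.7 and 499 ± 49.99 in helper and cytotoxic cells, a log2 difference of -0.03, and the dim one 19.5 ± 3.47 and 17.8 ± 3.60, a difference of 0.04. Neither gene differed by more than the software error of its probes.

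Smad4 encodes the SMAD that partners the receptor-activated ones. Its brighter probe gave 11355 ± 1136 in helper cells and 10502.6 ± 1050.3 in cytotoxic cells, and the other 2044 ± 204 and 2013 ± 201. Their log2 differences were 0.06 and 0.15, and these probes and a dim Smad3 and Skil probe were, with Smad7, the only member probes with a value above 0. Smad7 encodes the inhibitory SMAD, which is itself induced by TGF-beta signals as negative feedback. Its probe gave 1091 ± 109 in helper cells and 982 ± 98.2 in cytotoxic cells, a log2 difference of 0.02. The differences of Smad4 and Smad7 became -0.07 and -0.06 with normexp, and those of Tgfbr2, Smad2 and Smad3 became 0.10, 0.11 and 0.11 with median scaling, so none of these 5 genes has a settled direction.

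Ski and Skil (SnoN) encode related corepressors that bind SMAD complexes and are degraded upon TGF-beta signals. The brightest of the 3 Ski probes gave 3983 ± 398 in helper cells and 3004 ± 300.4 in cytotoxic cells, a log2 difference of -0.23. The next gave 2553 ± 255 and 1608 ± 161, a difference of -0.49, and the dimmest 153 ± 15.6 and 89.2 ± 9.48, a difference of -0.60. All 3 probes were higher in helper cells, by 1.17-fold, 1.41-fold and 1.52-fold, and the value of Ski was below 0 in 11 of 11 alternatives, between -0.44 and -0.09. The value of Skil was also below 0 in 11 of 11, between -0.32 and -0.09. Several alternatives repeat the main value, so these counts are not independent. The Skil probes were split. The brighter gave 2218 ± 222 and 1645.5 ± 165 in helper and cytotoxic cells, a log2 difference of -0.25, and the other 143 ± 14.6 and 133 ± 13.7, a difference of 0.07. Over all genes, 43.4% lay at least as far apart as Ski by its brightest probe, and 39.5% as far as Skil.

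**Figure D4:**
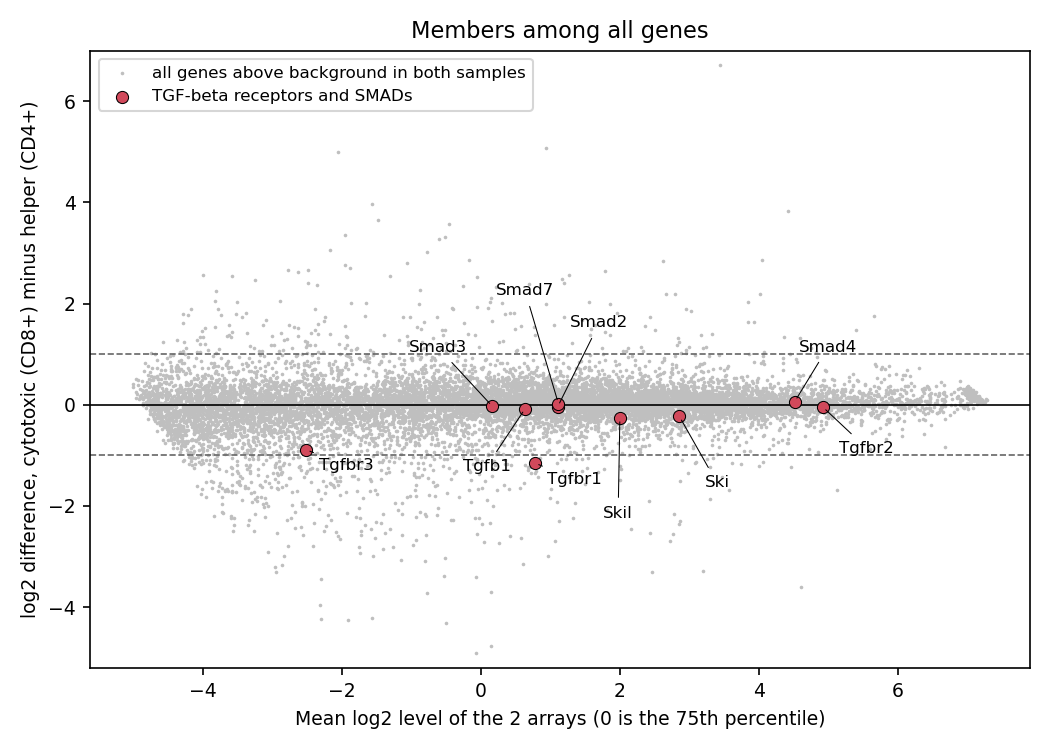
Log2 difference (cytotoxic minus helper) against the mean log2 level for the 11957 genes above background in both samples (grey) and the 10 members (red), with dashed lines at 2-fold. Tgfbr1, at -1.15, lies below the lower dashed line and Tgfbr3, at -0.89, just above it, while the other 8 lie between -0.25 and 0.06.

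Markers of other cells also differed between the samples, in both directions. Over all genes above background in both samples, 46.3% were higher in helper cells and 53.7% in cytotoxic cells by any amount. Unless a fold is named, the marker counts below likewise take any difference. Of 10 regulatory T cell markers 8 were matched. Of the 5 above background in both samples 4 were higher in helper cells, 3 of them at least 2-fold, with Ctla4 at 15.6-fold and Ikzf2 at 5.85-fold. Ikzf4 was 1.04-fold higher in cytotoxic cells by its brightest probe, but its 3 probes ranged from -1.03 to 0.05 in log2 difference. Foxp3, Il2ra and Nrp1 were above background only in helper cells. Of all 1101 genes above background in 1 sample alone, 920 were so in helper cells and 181 in cytotoxic cells. Among 7 matched dendritic cell markers 6 were higher in helper cells, 3 of them at least 2-fold, and Xcr1 was higher in cytotoxic cells. Xcr1 was 1.28-fold higher there by its brighter probe, but its 2 probes gave log2 differences of 0.35 and 3.03. Of the 7 natural killer cell markers 4 were higher in helper cells, 3 of them at least 2-fold, and Klra8 was higher in cytotoxic cells. Klre1 and Klri2 were not well above background in either sample. Of the 7 plasma cell markers 6 were higher in helper cells, 2 of them at least 2-fold, and Tnfrsf17 was above background only there.

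Other lists went the opposite way or were split. All 9 B cell markers were higher in cytotoxic cells, 5 of them at least 1.5-fold and none 2-fold. Of 10 matched macrophage and monocyte markers 7 were higher in helper cells and 3 in cytotoxic cells, with 1 in each direction at least 2-fold apart. Platelets are rich in TGF-beta1, and of 10 matched platelet markers 4 were higher in cytotoxic cells, none of them 2-fold. Another 3 were higher in helper cells, 1 of them at least 2-fold. Itga2b was above background only in cytotoxic cells, at least 2.32-fold higher, and Gp1ba and Gp5 were not well above background in either sample. No neutrophil, erythroid or stromal marker above background in both samples (5, 4 and 7 genes) was 2-fold apart, and 2 further neutrophil markers were above background only in helper cells.

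Summed processed signals of these lists, before scaling, were 40811 in helper cells and 17728 in cytotoxic cells for regulatory T cells, 24633 and 17119 for dendritic cells, 11101 and 4442 for natural killer cells, and 3950 and 2272 for plasma cells. They were 9942 and 13622 for B cells, 43370 and 64299 for macrophages and monocytes, and 9773 and 1764 for platelets. A single bright probe gave a large part of several sums. It was Tnfrsf18 for regulatory T cells (33306 and 16138 in helper and cytotoxic cells), Bst2 for dendritic cells (20694 and 15528) and Tyrobp for natural killer cells (10166 and 3997). For macrophages and monocytes it was Ly6c2 (13907 and 41703), for platelets Itgb3 (8745 and 784) and for B cells Cd79b (5789 and 9159). Without Ly6c2 the macrophage and monocyte sum was the larger in helper cells, and without Itgb3 the platelet sums lay close together. The neutrophil sums were 1322 and 1357, the erythroid 3156 and 2293, and the stromal 919 and 755. Here S100a9 gave 1078 and 1153 of the neutrophil sums, and Hba-a1 gave 2578 and 1847 of the erythroid sums. The part of any of these cells in the differences of Tgfbr1, Tgfbr3 and Ski was not tested.

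The surrounding pathway was described by 6 lists of signalling genes, of which 92 of 96 genes were matched and 75 were above background in both samples. Beside these and the counts per list below, 11957 of all 17176 genes were above background in both samples. Of the 75, 4 (5.33%) were at least 2-fold higher in helper cells and 5 (6.67%) in cytotoxic cells, beside 3.83% and 1.94% of all genes, and 66 were within 2-fold. With normexp these counts fell to 1 (Bmp7) and 2 (Eng and Usp11), and with the series values to 2 and 2. The counts over all genes fell as well, from 458 and 232 to 220 and 122 with normexp. With the series values they were 269 and 140. The median difference of the 75 genes was 0.00.

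Among ligands and genes of latent TGF-beta activation, 9 of 15 matched genes were above background in both samples, with a median of -0.04. Tgfb3, another TGF-beta isoform, had a signal of 197 ± 19.96 in helper cells and 58.9 ± 6.72 in cytotoxic cells and was 2.96-fold higher in the former. Ltbp2, of the latent TGF-beta binding protein family, was 2.37-fold higher in cytotoxic cells (58.3 and 122 in helper and cytotoxic cells), and the membrane metalloproteinase gene Mmp14 2.23-fold higher in helper cells (426 and 169). With normexp these folds were 1.79, 1.78 and 1.76, and none passed 2-fold. Mmp9 was above background only in helper cells, at least 2.41-fold higher, or at least 1.30-fold with normexp, and 13.7% of all 1101 genes above background in 1 sample alone had such a bound of 2-fold in favour of helper cells. Tgfb2, Itgb6, Thbs1 and Fbn1 were not well above background in either sample, and no probe was matched to Itgb8 or Lrrc32.

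Activin and bone morphogenetic protein (BMP) ligands and receptors, the sister branch of the family, had 9 of 18 genes above background in both samples and a median of -0.40. This median did not hold under normexp, at 0.02, and shrank to -0.07 when taken from the series values. Endoglin (Eng), a co-receptor related to betaglycan, went opposite to Tgfbr3. Its signal was 50.5 ± 5.90 in helper cells and 304 ± 30.6 in cytotoxic cells, 6.80-fold higher in the latter (3.56-fold with normexp). The BMP ligand gene Bmp7 was 13.2-fold higher in helper cells (7.70-fold with normexp), and its probes gave -3.73 and -3.17 on the log2 scale. The type I receptor gene Acvrl1 (ALK1) was 1.96-fold higher in helper cells (136 and 61.6 in helper and cytotoxic cells). Acvr1c, a further type I receptor, was above background only in helper cells, at least 2.01-fold higher, with no bound above 1 after quantile normalization.

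The other SMADs and SMAD anchors had 7 of 8 matched genes above background in both samples, none 2-fold apart, with a median of -0.09. The farthest apart was Smad5, a SMAD of the BMP branch, with 4287 ± 429 in helper cells and 2768 ± 277 in cytotoxic cells, a difference of -0.45 that its 3 probes gave as -0.51 to -0.36. The anchor genes Dab2 and Zfyve16 followed at -0.18 and -0.17, and Dab2 turned to 0.05 with normexp.

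Genes of receptor and SMAD turnover and inhibition had 19 of 20 above background in both samples, with a median of 0.09, and 15 of the 19 had values above 0, beside 53.7% of all genes, 11 of them by less than the SD between probes of a gene. Usp11, a deubiquitinase, was 2.96-fold higher in cytotoxic cells, with 440.2 ± 44.1 in helper cells and 1154 ± 115 in cytotoxic cells. Nedd4l, a ubiquitin ligase that targets activated SMADs, was 2.09-fold higher in cytotoxic cells (46.9 and 86.7 in helper and cytotoxic cells), and 1.53-fold with normexp. Pmepa1, a TGF-beta-induced inhibitor of receptor signalling, was 1.62-fold higher in cytotoxic cells, or 1.32-fold with normexp.

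The SMAD partners and corepressors had 19 of 19 matched genes above background in both samples and a median of 0.09. The Runt factors lay on opposite sides, with Runx1 2.05-fold higher in helper cells and Runx3, which represses Cd4 in cytotoxic cells, 1.90-fold higher in cytotoxic cells. The Runx1 probes disagreed, at -1.04 and 0.01, and Runx1 was 1.43-fold higher with their mean and 1.52-fold with normexp, whereas both Runx3 probes were above 0, at 0.50 and 0.93. E2f4, a cell cycle factor that can bind SMAD3, was 2.01-fold higher in cytotoxic cells by a dim probe (13.9 and 24.8), or 1.38-fold with normexp. The non-SMAD branch (12 of 12 genes above background in both samples) had a median of -0.01 and no gene 2-fold apart, and the farthest were Pard6a at 0.29, Xiap at -0.27 and Shc1 at -0.23.

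**Figure D5:**
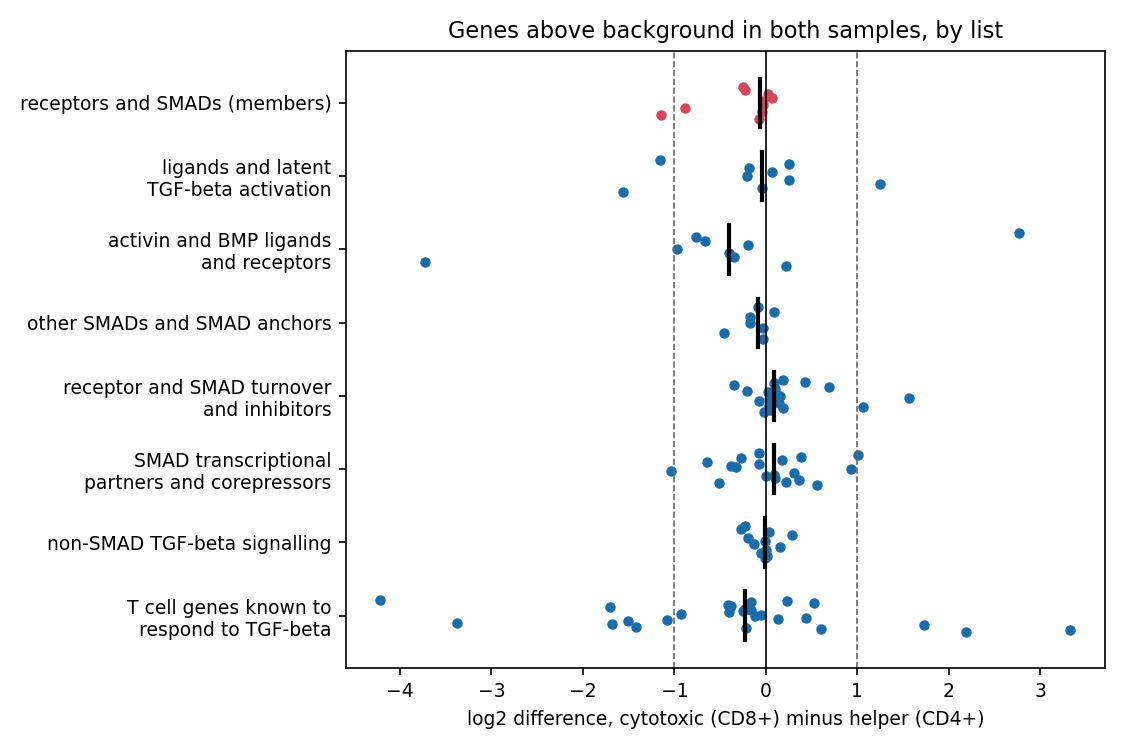
Log2 difference (cytotoxic minus helper) of each gene above background in both samples, for the 10 members (red) and 7 further lists (blue), with the list median as a black bar and dashed lines at 2-fold. The members have a median of -0.06, the response genes spread from -4.21 to 3.33, and the non-SMAD genes lie within 0.29 of 0.

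T cell genes known to respond to TGF-beta were a separate list, which holds genes that also mark helper, regulatory or cytotoxic cells and is therefore no measure of TGF-beta signalling. Of 26 genes above background in both samples, 7 were at least 2-fold higher in helper cells and 3 in cytotoxic cells, beside 3.83% and 1.94% of all genes, with a median of -0.22 beside 0.02. The regulatory cytokine gene Il10 was at least 3.73-fold higher in helper cells (under 2-fold with normexp), and Foxp3, which the regulatory T cell markers also hold, at least 21.3-fold (at least 4.14-fold with normexp). Klrg1, at 18.5-fold (7.15-fold with normexp), and Fasl, at 10.4-fold (6.47-fold), were higher in helper cells, and Eomes, at 10.03-fold (6.46-fold), in cytotoxic cells.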

How the data were processed

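Total RNA was Cy3-labelled by linear amplification, per the labels' protocols. The scanner output deposited by the authors holds linear spot intensity. Feature Extraction 10.1.1.1 subtracted background and detrended each array, per the file headers, whereas the submitters' processing notes name version 9.1. The authors' series table holds the median spot intensity, unscaled (equal at 45018 of 45018 spots on each array, with medians of 80 and 73).

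Control spots and spots marked as outliers (99 and 92) were left out, saturated spots were kept, and replicate spots were averaged as log2 values. Of 41174 probes, 24844 (60.3%) matched 1 symbol by accession in RefSeq genes of GRCm38.p6. For the probes this build served for names and not for positions, since the file headers give the array design another build. The windows before the receptor genes took their positions from GRCm38.p6. A gene took its brightest probe above background on both arrays. From each further list the 3 genes farthest apart were named, with every gene of 1 array whose bound reached 2-fold, and Cd4 and Cd8a as checks. Acvr1c, Mmp9, Foxp3 and Il10 entered by their bounds, and a further gene that the rule names is not reported here. The members and lists were chosen with earlier results of these data known.

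Alternatives were normexp (offset 50, on the median signal), other scalings, quantile and loess normalization (span 0.3), the series values, other probe rules and a 1.5-fold threshold. The computation was tested on simulated data. Python 3.11.15, numpy 2.4.6, pandas 2.3.3, statsmodels 0.14.6, R 4.3.3 and limma 3.58.1 were used.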

Additional observations from a re-analysis of the deposited data

How the results depend on the processing

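With 1 array per cell type no result has a replicate check, and the dim second probes of Tgfbr1 and Smad3 lie near background. No paired analysis was possible because each cell type had 1 array. The planned use of gene names from the scanner files was not run, since the scanner files used here hold accessions and no column of gene names. The count of members at least 2-fold higher in helper cells was 2 at the 1.5-fold threshold and 1 in each other alternative. Several alternatives, such as keeping outlier spots or leaving out saturated probes, use the same Tgfbr1 probe unchanged and could not alter its value. The mean over probes takes those above background in both samples, which for Tgfbr1 is 1 probe. An earlier form of this mean also took the dim Tgfbr1 probe at its measured value. Tgfbr1 was then under 2-fold, and no member reached it. In the 7 further lists, 11 of 101 genes above background in both samples were at least 2-fold higher in helper cells and 8 in cytotoxic cells. These counts were 7 and 5 with normexp, and 3 and 4 with brighter probes alone. The series values gave 5 in cytotoxic cells, and no filter on dim probes gave 18 in helper cells. Over all genes the counts moved too, from 458 and 232 of 11957 to 220 and 122 with normexp. They were 133 and 102 of 7438 genes with brighter probes alone. The series values gave 140 of all genes in cytotoxic cells, and no filter gave 1277 of 17176 in helper cells. Normexp and the series values also replace the processed by the median signal, and the cause of these shifts was not tested, except that brighter probes alone leave fewer genes. Median scaling moved the median of all genes from 0.02 to 0.17 and raised the cytotoxic share of genes at least 2-fold apart from 33.6% to 46.6%. No member at least 2-fold apart changed sign.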
